A study of Homo sapiens with 6 samples.

Results

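Transcripts of 10 genes of fibroblast growth factor (FGF) signalling were compared between CAL-27 cells grown in adhesion, called parental, and CAL-27 sphere cells obtained by suspension culture. The genes were taken by symbol: the receptors FGFR1, FGFR2 and FGFR3, the ligand FGF2, the FGF carrier FGFBP1, the feedback inhibitors SPRY1, SPRY2 and SPRY4, and the transcription factors ETV4 and ETV5. All 10 were found among the 17110 genes of the table, and 9 of them were among the 12261 genes with a mean of at least 1 TPM over the 6 libraries, which were tested. FGFR1 was below that level.

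CAL-27 cells are an established line of human tongue squamous carcinoma, and the series' design text gives isolation of cancer stem cells as the purpose of the suspension culture. There were 3 libraries of total RNA per group, and neither group carried a stated treatment or genetic change. Whether replicates came from separate cultures is not stated, and p-values reflect the variation among these libraries alone, possibly technical. Values are TPM, read abundance per transcript length at a fixed library total, so levels of different genes can be set side by side, but the depth behind each value is unknown. Each library had 15045 to 15448 genes above 0, and log2(TPM + 1) values correlated across genes at 0.995 to 0.997 within groups and 0.840 to 0.842 between them.

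FGFs are secreted proteins that bind receptor tyrosine kinases together with heparan sulfate chains on the cell surface. An active receptor passes its signal through the adaptor FRS2 to RAS and the kinase ERK, which raises transcripts of ETV4 and ETV5 and of the Sprouty inhibitors that damp the same pathway. In stratified epithelium, FGFR2 and FGFR3 are the receptors best known, and FGF7 from the underlying mesenchyme is a growth factor for keratinocytes. These transcriptional outputs also respond to ERK signalling from other receptors, such as those of epidermal growth factor.

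FGFBP1, SPRY2, SPRY4 and FGFR3 were far higher in sphere than in parental libraries, FGFR2 was far lower, and the other tested genes differed by less than 2-fold. Of the 9 tested, 5 rose and 4 fell past an adjusted p of 0.05 in limma on log2(TPM + 1). Median-of-ratios scaling left 5 higher and 2 lower, since the calls of FGF2 and SPRY1 were lost. Across all tested genes 83.4% passed that threshold, 35.1% higher and 48.2% lower, so passing it does not set these genes apart. At least 2-fold on the same scale, 4 of the 9 rose and 1 fell, where 12.5% of all tested genes rose and 14.7% fell that far. ETV4 was just past 2-fold with median-of-ratios scaling (log2 difference 1.002), where the share of all genes that far was not counted. The parental and sphere values did not overlap for any of the 9, as for 84.6% of all tested genes. The median difference was 0.83 on the log2 scale over these 9 genes and -0.13 over all tested genes.

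**Figure D1:**
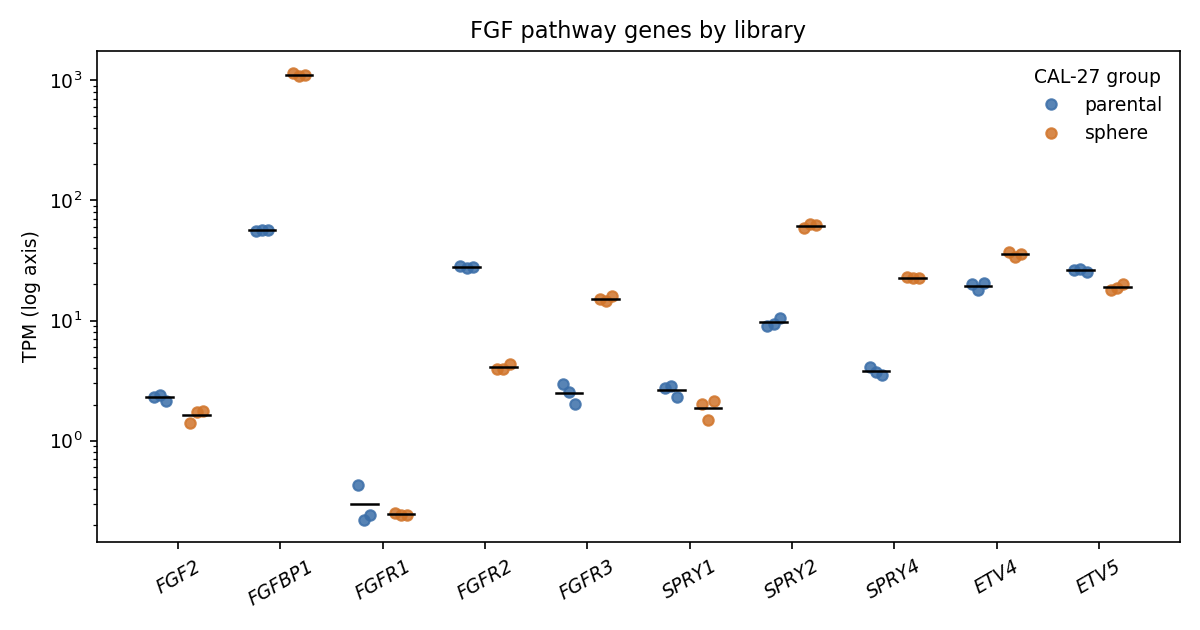
TPM on a log axis for the 10 genes in each library, with 3 parental and 3 sphere points per gene and a line at each group mean. The groups are apart for every gene except FGFR1, where all 6 values lie between 0.22 and 0.43 TPM.

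**Figure D2:**
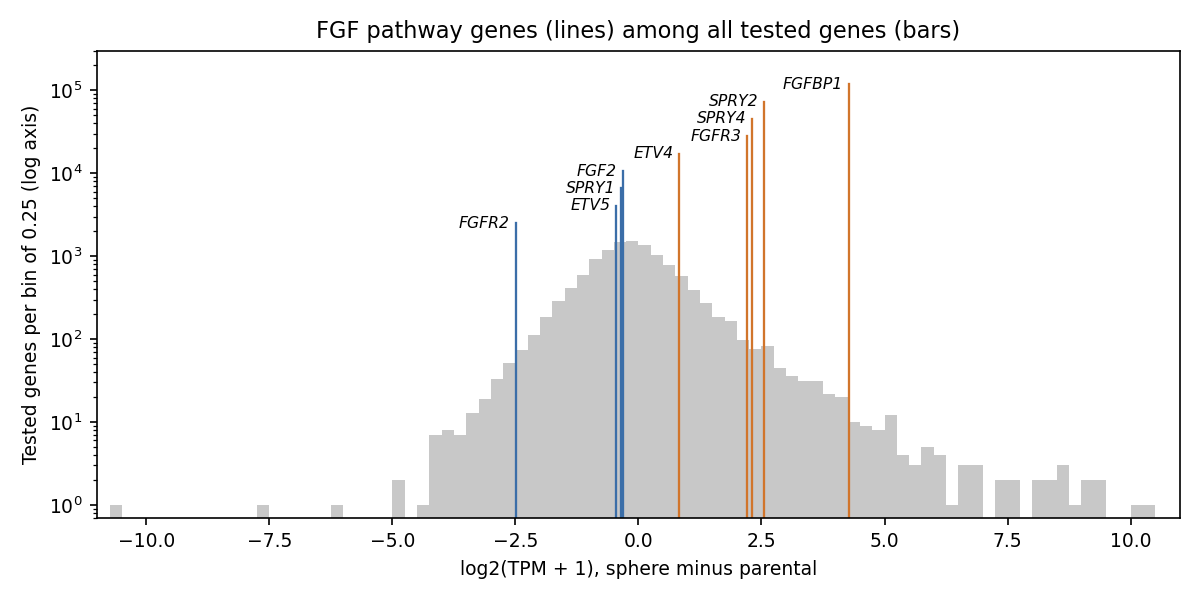
Differences on the log2(TPM + 1) scale, sphere minus parental, for 12261 tested genes in bins (bars, log axis of counts) and for the 9 tested FGF pathway genes (lines, whose heights only separate the names). FGFBP1 lies at 4.27 in the upper tail, while FGF2, SPRY1 and ETV5 lie near the peak.

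The 4 genes that rose at least 2-fold are shown with the 250 bases before their first listed start in RefSeq, build GRCh38.p14, to let their promoters be compared. Capitals mark the ETS-type motif CCGGAA, searched on both strands, the kind of site that ETV4 and ETV5 bind. The AP-1 motif TGANTCA was also searched for on both strands.
FGFBP1, chr4:15938741-15938990, minus strand: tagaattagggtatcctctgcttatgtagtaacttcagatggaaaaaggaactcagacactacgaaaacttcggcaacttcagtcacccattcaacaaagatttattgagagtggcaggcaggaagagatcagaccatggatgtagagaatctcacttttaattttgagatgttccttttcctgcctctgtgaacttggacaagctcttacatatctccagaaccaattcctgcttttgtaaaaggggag
FGFR3, chr4:1793043-1793292, plus strand: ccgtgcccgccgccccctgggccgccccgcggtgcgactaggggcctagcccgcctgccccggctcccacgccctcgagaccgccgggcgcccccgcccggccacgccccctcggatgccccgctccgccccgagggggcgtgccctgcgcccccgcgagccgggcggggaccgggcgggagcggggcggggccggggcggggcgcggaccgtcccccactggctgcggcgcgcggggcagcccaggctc
SPRY2, chr13:80341127-80341376, minus strand: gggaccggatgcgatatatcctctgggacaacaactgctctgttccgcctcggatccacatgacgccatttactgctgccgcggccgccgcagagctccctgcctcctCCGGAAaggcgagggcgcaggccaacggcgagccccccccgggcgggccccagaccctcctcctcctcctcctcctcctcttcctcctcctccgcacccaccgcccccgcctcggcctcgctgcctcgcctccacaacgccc
SPRY4, chr5:142324248-142324497, minus strand: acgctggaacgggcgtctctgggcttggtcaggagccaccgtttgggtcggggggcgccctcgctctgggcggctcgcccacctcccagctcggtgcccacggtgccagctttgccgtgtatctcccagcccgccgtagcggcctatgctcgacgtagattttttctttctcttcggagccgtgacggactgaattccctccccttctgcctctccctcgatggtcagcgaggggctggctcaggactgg
In the 300-base windows that add the first 50 transcribed bases, CCGGAA was found once for SPRY2 (the first of its 3 windows), starting 142 bases before the start, and in none of the windows of FGFBP1, FGFR3 and SPRY4. TGANTCA was in none of the 4 windows. Of 35116 RefSeq promoter windows of this length, 17.2% hold CCGGAA and 7.71% hold TGANTCA. The FGFBP1 window was poor in CpG, with 3 such pairs and 42% GC, against 30 and 71% for SPRY2, 26 and 65% for SPRY4, and 51 and 86.3% for FGFR3. The median of all windows was 14 CpG and 58.7% GC. Windows were used for 7 of the 10 genes, not for FGFR1, ETV4 and ETV5. FGFR2 has 5, none of which holds either motif, and the window of FGF2 holds neither. SPRY1 has 2, and its second holds CCGGAA 67 bases before the start. Which start CAL-27 cells use was not measured, and a match of letters does not show binding.

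FGFBP1 encodes a secreted protein that binds FGFs held in the matrix and carries them to receptors. Its TPM was 55.2, 57.2 and 56.6 in parental libraries and 1145, 1086 and 1093 in sphere libraries. It was the most abundant of the 10 transcripts in both groups, and each sphere library lay far above each parental one. The ratio of mean TPM was 19.7 (56.3 ± 1.0 and 1108 ± 32.1 TPM, SD, n = 3 each), with a log2 difference of 4.27 ± 0.04 (SE, limma adjusted p = 3.4e-13). Only 84 of the 12261 tested genes had a larger difference in either direction. The related carrier genes FGFBP2 and FGFBP3 were below the filter, at no more than 1.13 TPM in any library.

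FGF2, a ligand that leaves cells without a signal peptide, was among the least abundant of the 10 genes. Its TPM was 2.31, 2.41 and 2.16 in parental and 1.41, 1.72 and 1.78 in sphere libraries. The groups were close without overlapping, at means of 2.29 ± 0.13 and 1.64 ± 0.20 TPM (SD, n = 3 each). The log2 difference was -0.32 ± 0.10 (SE, limma adjusted p = 0.014), against a median of -0.13 for all tested genes. The call was lost with median-of-ratios scaling (adjusted p = 0.08) and without sphere replicate 1 (adjusted p = 0.052). FGF2 overlaps NUDT6, an antisense gene, which was at 3.40 ± 0.13 and 0.847 ± 0.225 TPM, and with no stated use of strand the reads of the overlap cannot be told apart.

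Of 22 FGF family genes listed as ligands, 16 were in the table and 4 were tested. Of the 4, 1 rose and 3 fell (1 and 1 with median-of-ratios scaling), with a median of -0.27. Across all tested genes 35.1% rose and 48.2% fell, with a median of -0.13. FGF7, the keratinocyte growth factor, rose from 1.4, 1.28 and 1.5 TPM to 2.89, 4.01 and 3.44 TPM (log2 difference 0.89 ± 0.11, limma adjusted p = 4.6e-05). FGF1, a ligand of all FGF receptors, fell from 2.44 ± 0.27 to 1.33 ± 0.09 TPM (log2 difference -0.56 ± 0.10, adjusted p = 6.0e-04). FGF11, an intracellular relative that is not a receptor ligand, was at 4.38 ± 0.38 and 3.63 ± 0.10 TPM. Its call (adjusted p = 0.04) was lost without parental replicate 2 or 3 or without any 1 of the sphere libraries (adjusted p up to 0.13), with median-of-ratios scaling (0.45) and with no filter (0.052). The other 12 in the table, FGF5, FGF8, FGF9, FGF12, FGF13, FGF14, FGF17, FGF18, FGF19, FGF21, FGF22 and FGF23, stayed at or under 0.78 TPM in every library. FGF3, FGF4, FGF6, FGF10, FGF16 and FGF20 were not analysed here. No gene of this list exceeded 4.82 TPM in any library, the highest value of FGF11. Without FGF11 the highest value was 4.01 TPM, of FGF7.

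The markers of fibroblasts, which make FGF7 in tissue, were low: 8 of 9 were in the table, their summed level was 11.97 to 12.5 TPM in parental and 15.7 to 17.3 TPM in sphere libraries, and COL3A1, FAP and THY1 were under 0.1 TPM in every library. The list did not move one way. COL1A1, most of that sum, rose from 8.15 ± 0.06 to 16.1 ± 0.9 TPM, and PDGFRB, the other tested marker, fell from 2.63 ± 0.17 to 0.087 ± 0.045 TPM (log2 difference -1.74 ± 0.11, limma adjusted p = 1.9e-07). COL1A2 was at 0.763 ± 0.137 and 0.113 ± 0.012 TPM and PDGFRA at 0.263 ± 0.064 and 0.07 ± 0.026 TPM, both below the filter. The part of these markers in the FGF7 difference was not tested. All 8 epithelial markers were tested, summing to 3875 to 3977 TPM in parental and 15891 to 16031 TPM in sphere libraries. KRT8 (1431 ± 4.3 TPM) and KRT18 (1217 ± 25.1 TPM) were highest in parental libraries, and KRT14 and KRT5 in sphere libraries, so the sums differ in make-up. Of the 8, KRT5, KRT14, CDH1, DSG3 and TP63 rose and KRT8, KRT18 and EPCAM fell. KRT18 fell least, to 1065 ± 29.8 TPM (log2 difference -0.19 ± 0.03), and values under other settings were not read for the markers. KRT14, a keratin of the basal layer, went from 4.69 ± 0.21 to 7705 ± 79.5 TPM. The part of this keratin shift in the FGFBP1, FGFR2 and FGFR3 differences was not tested. Summed markers of leukocytes (6 of 6 in the table) were at 47.4 to 51.9 and 176 to 181 TPM, nearly all of it CD68, a lysosomal gene at 48.1 ± 2.6 and 176 ± 3.1 TPM, while PTPRC and CD3E were at 0 in every parental library and at no more than 0.2 TPM in any sphere library. Summed endothelial markers (4 of 5) were at 10.95 to 11.56 and 0.22 to 0.30 TPM, nearly all of it CDH5 in parental libraries, with TEK under 0.1 TPM throughout. In bulk RNA, fewer cells that express a gene and less RNA per cell cannot be told apart.

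The receptors moved in opposite directions, so that their order was turned over between the groups. FGFR2, the epithelial receptor of FGF7 in its keratinocyte splice form, was at 28.2, 27.1 and 28.1 TPM in parental and 3.96, 3.98 and 4.38 TPM in sphere libraries. Its lowest parental value was several times its highest sphere value. The parental mean was 6.77 times the sphere mean, and the log2 difference was -2.50 ± 0.06 (SE, n = 3 each, limma adjusted p = 3.8e-10), exceeded in size by 493 tested genes.

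FGFR3, a receptor of squamous and urothelial epithelium, was at 2.99, 2.52 and 2.04 TPM in parental and 15.2, 14.4 and 16.0 TPM in sphere libraries. Every sphere library was above every parental one. The ratio of means was 6.03 (2.52 ± 0.48 and 15.2 ± 0.8 TPM) and the log2 difference 2.21 ± 0.10 (SE, limma adjusted p = 2.3e-08), exceeded in size by 663 tested genes. FGFR1, the receptor typical of mesenchymal cells, was at 0.43, 0.22 and 0.24 TPM in parental and 0.25, 0.24 and 0.24 TPM in sphere libraries. These groups overlap, and with no filter the log2 difference was -0.06 ± 0.07 (limma adjusted p = 0.49). At such low values a difference may not be detectable.

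FGFR4, the remaining receptor with a kinase, was not among the 10 genes but completes the comparison. It fell from 25.6, 25.3 and 22.2 TPM to 3.65, 4.39 and 4.19 TPM (log2 difference -2.32 ± 0.08, limma adjusted p = 3.6e-09). FGFRL1, a receptor without a kinase domain, was at 11.8 ± 0.04 and 11.2 ± 0.6 TPM (adjusted p = 0.34).

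As shares of the summed TPM of FGFR1, FGFR2, FGFR3 and FGFR4, parental libraries were mostly FGFR2 and FGFR4, and sphere libraries mostly FGFR3. The FGFR3 share was 5.23, 4.57 and 3.88% in parental and 65.9, 62.6 and 64.4% in sphere libraries. The FGFR2 share was 49.3, 49.2 and 53.5% against 17.2, 17.3 and 17.7%, and that of FGFR4 44.2 ± 1.9% against 17.3 ± 1.6% (SD, n = 3 each). FGFR1 made up 0.536 ± 0.189% and 1.03 ± 0.06%, while its own TPM overlapped between the groups. The sum itself was 57.2, 55.1 and 52.6 TPM in parental and 23.0, 23.0 and 24.8 TPM in sphere libraries. None of these 5 quantities overlapped between groups, and in each the exact permutation test (two-sided) gave p = 0.1, the smallest that 3 against 3 libraries allow. Such shares do not depend on how the libraries were scaled against each other.

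**Figure D3:**
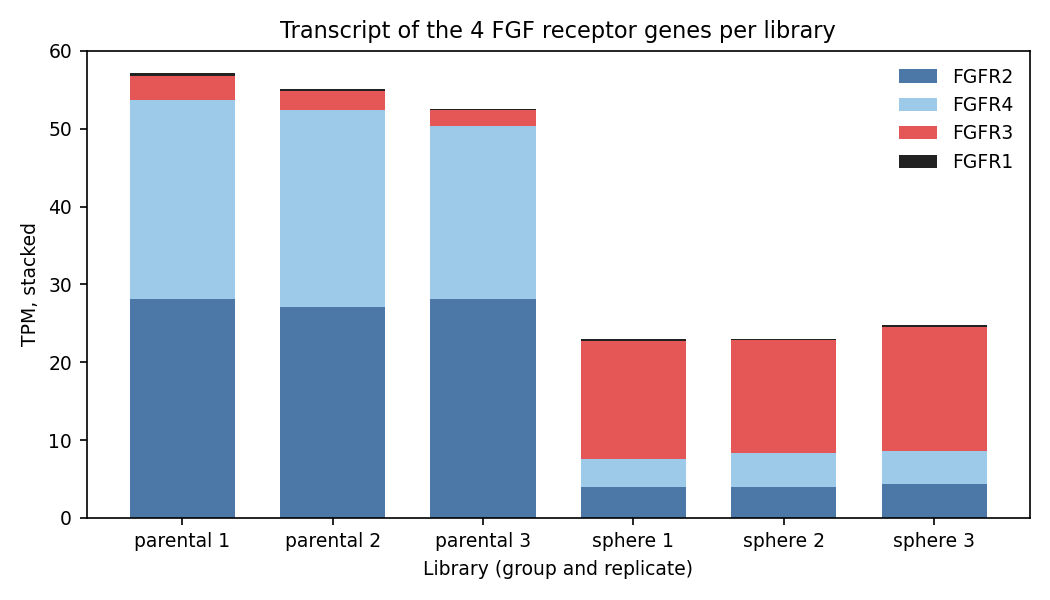
Stacked TPM of FGFR1, FGFR2, FGFR3 and FGFR4 in each of the 6 libraries. Parental bars reach 52.6 to 57.2 TPM and consist mainly of FGFR2 and FGFR4, and sphere bars reach 23.0 to 24.8 TPM and consist mainly of FGFR3.

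TPM per gene does not separate the splice forms of FGFR2 that recognise epithelial and mesenchymal ligands. Of 5 regulators of that splicing, 3 rose and 2 fell, where 35.1% of all tested genes rose and 48.2% fell. ESRP1, which favours the epithelial form, rose from 44.2 ± 3.4 to 90.3 ± 2.8 TPM (log2 difference 1.02 ± 0.06, limma adjusted p = 9.2e-08), and its relative ESRP2 from 30.03 ± 1.23 to 38.5 ± 1.0 TPM (adjusted p = 9.3e-05). CELF1 fell from 64.4 ± 2.3 to 40.6 ± 1.2 TPM and PTBP1, a splicing repressor, from 191 ± 3.8 to 130 ± 4.0 TPM. The median difference of the 5 was 0.29, against -0.13 for all tested genes.

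Among the Sprouty genes, SPRY2 and SPRY4 rose together, while SPRY1 was slightly lower in sphere libraries. Sprouty proteins restrain RAS and ERK signalling downstream of receptor tyrosine kinases, and ERK activity raises their transcripts. SPRY2 was at 9.05, 9.32 and 10.6 TPM in parental and 59.2, 63.4 and 61.8 TPM in sphere libraries. The groups were far apart relative to their spread, with a ratio of means of 6.38 and a log2 difference of 2.56 ± 0.06 (SE, n = 3 each, limma adjusted p = 3.6e-10), exceeded in size by 457 tested genes.

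SPRY4 was at 4.08, 3.73 and 3.54 TPM in parental and 22.9, 22.5 and 22.6 TPM in sphere libraries. Its ratio of means, 5.99, was close to that of SPRY2, with a log2 difference of 2.31 ± 0.07 (SE, limma adjusted p = 9.3e-10). SPRY1 was at 2.76, 2.88 and 2.33 TPM in parental and 2.03, 1.48 and 2.15 TPM in sphere libraries, close to each other but not overlapping. Its log2 difference was -0.35 ± 0.12 (SE, limma adjusted p = 0.022). That call was lost without parental replicate 1 (adjusted p = 0.056), parental replicate 2 (0.068) or sphere replicate 2 (0.083), and with median-of-ratios scaling (0.10).

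Feedback inhibitors as a list, with the Sprouty genes included, were divided likewise. Of 13 tested, 5 rose, all of them at least 2-fold, and 4 fell, all by less than 2-fold. Of all tested genes 83.4% passed the threshold, 35.1% higher and 48.2% lower, and 12.5% rose and 14.7% fell at least 2-fold. The median over the 13 was 0.01 on the log2 scale, against -0.13 for all tested genes. With median-of-ratios scaling, which moves the median of all tested genes to 0.03, the counts were 6 higher and 1 lower. DUSP6, a phosphatase that acts on ERK, had the largest rise, from 20.4, 20.5 and 20.7 TPM to 175, 180 and 187 TPM (log2 difference 3.08 ± 0.04, limma adjusted p = 8.0e-12). Besides SPRY2 and SPRY4, the other 2 that rose were the ERK phosphatases DUSP5 (38.3 ± 1.1 to 195 ± 5.1 TPM) and DUSP7 (22.7 ± 2.4 to 123 ± 5.4 TPM), both named after their values were seen. DUSP4, a nuclear phosphatase of the same family, fell from 52.3 ± 0.8 to 37.6 ± 0.3 TPM (adjusted p = 2.6e-06). SPRED1, a Sprouty-related inhibitor of RAS, was at 10.6 ± 0.9 and 8.85 ± 0.09 TPM (adjusted p = 0.012), a call lost with median-of-ratios scaling (0.33).

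**Figure D4:**
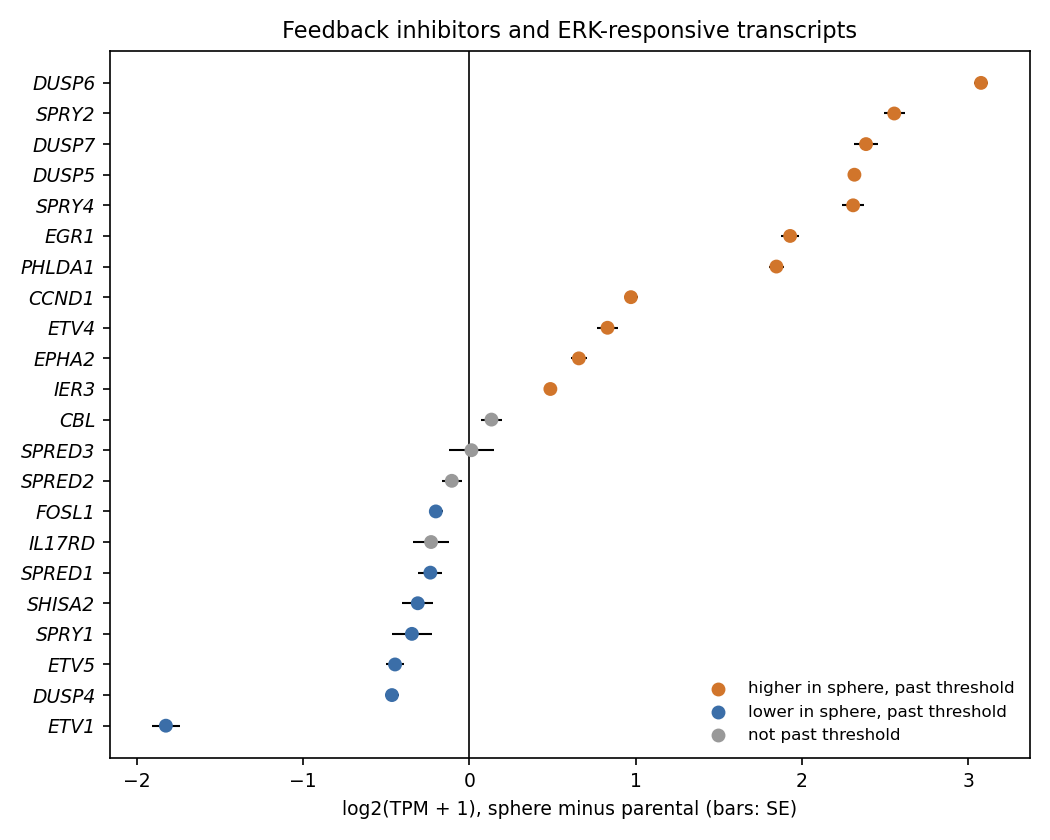
Log2(TPM + 1) difference, sphere minus parental, with its SE for each tested feedback inhibitor and ERK-responsive transcript, coloured by call. DUSP6 is highest at 3.08 and ETV1 lowest at -1.83, and the Sprouty genes lie on both sides of 0.

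ETV4 and ETV5, close relatives in the PEA3 group of ETS transcription factors, went in opposite directions. ETV4 was at 20.2, 18.1 and 20.5 TPM in parental and 36.9, 33.7 and 36.0 TPM in sphere libraries. All sphere values were above all parental ones, with a ratio of means of 1.82 and a log2 difference of 0.83 ± 0.06 (SE, n = 3 each, limma adjusted p = 7.9e-07). ETV4 overlaps DHX8, which was at 49.3 ± 2.8 and 32.7 ± 0.5 TPM, so its reads are uncertain where the genes overlap.

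ETV5 was at 26.1, 26.8 and 25.5 TPM in parental and 17.99, 18.8 and 20.0 TPM in sphere libraries, so the groups were apart. The parental mean was 1.38 times the sphere mean, and the log2 difference was -0.45 ± 0.06 (SE, limma adjusted p = 3.9e-05). The remaining PEA3 gene, ETV1, fell from 9.24, 9.93 and 9.90 TPM to 1.80, 2.01 and 2.25 TPM (log2 difference -1.83 ± 0.09, adjusted p = 2.4e-08). ETV4 was thus the one PEA3 gene of 3 that was higher in sphere libraries, and it kept its direction and its call under all 14 alternative settings, as ETV5 and ETV1 did.

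Of 13 tested ERK-responsive transcripts, 9 rose and 4 fell, with a median of 0.83, where 35.1% of all tested genes rose and 48.2% fell, with a median of -0.13. After median-of-ratios scaling the counts were 9 and 3. This list shares SPRY2, SPRY4, DUSP4 and DUSP6 with the feedback inhibitors. It also holds 4 of the 10 genes (SPRY2, SPRY4, ETV4 and ETV5), and its median is the value of ETV4, so it is not separate from them. Among its other members EGR1, an immediate early transcription factor, rose from 28.9 ± 1.9 to 113 ± 4.3 TPM, PHLDA1 from 55.7 ± 0.2 to 203 ± 9.8 TPM and the cyclin CCND1 from 144 ± 3.5 to 284 ± 12.3 TPM, while FOSL1, a subunit of AP-1, fell from 261 ± 9.8 to 227 ± 8.7 TPM (limma adjusted p = 0.0015). The call of FOSL1 was lost with median-of-ratios scaling, where ETV1, ETV5 and DUSP4 kept theirs. EGR1, PHLDA1, CCND1 and FOSL1 were named after their values were seen.

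Genes that present FGFs to receptors changed in both directions. Of 6 tested binding proteins and co-receptors 3 rose and 2 fell (4 and 2 after median-of-ratios scaling), with a median of 0.22. As 83.4% of all tested genes passed (35.1% higher, 48.2% lower, median -0.13), passing does not set this list apart. After FGFBP1, the largest rise was in SDC1, a syndecan that carries heparan sulfate on epithelial cells, from 186, 186 and 182 TPM to 1216, 1155 and 1188 TPM (log2 difference 2.68 ± 0.03, limma adjusted p = 5.2e-12). SDC3, another syndecan, fell from 21.9 ± 1.3 to 10.3 ± 0.2 TPM (adjusted p = 1.4e-07). The glypicans GPC1 (71.8 ± 4.3 to 102 ± 6.6 TPM) and GPC4 (2.67 ± 0.65 to 0.72 ± 0.07 TPM), named after their values were seen, made up the other rise and fall. SDC4, also named after its values were seen, was at 617 ± 20.8 and 592 ± 13.4 TPM (limma adjusted p = 0.16). It was the rise added by median-of-ratios scaling. KLB, a co-receptor for endocrine FGFs, was below the filter.

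Of 11 tested enzymes that build or trim heparan sulfate, 4 rose and 7 fell, with a median of -0.56. Over all tested genes 35.1% rose and 48.2% fell, with a median of -0.13. SULF2, which removes 6-O-sulfate groups outside the cell, rose from 17.4, 16.5 and 16.2 TPM to 245, 236 and 236 TPM (log2 difference 3.76 ± 0.04, limma adjusted p = 3.3e-12). HS6ST1, which adds 6-O-sulfate, fell from 48.0 ± 0.3 to 18.7 ± 0.6 TPM (log2 difference -1.32 ± 0.05, adjusted p = 3.3e-09). GLCE, an epimerase of the chain, fell from 30.2 ± 1.1 to 13.4 ± 0.8 TPM. The sulfotransferase NDST2 rose from 10.1 ± 1.3 to 14.3 ± 1.8 TPM (adjusted p = 0.0028).

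**Figure D5:**
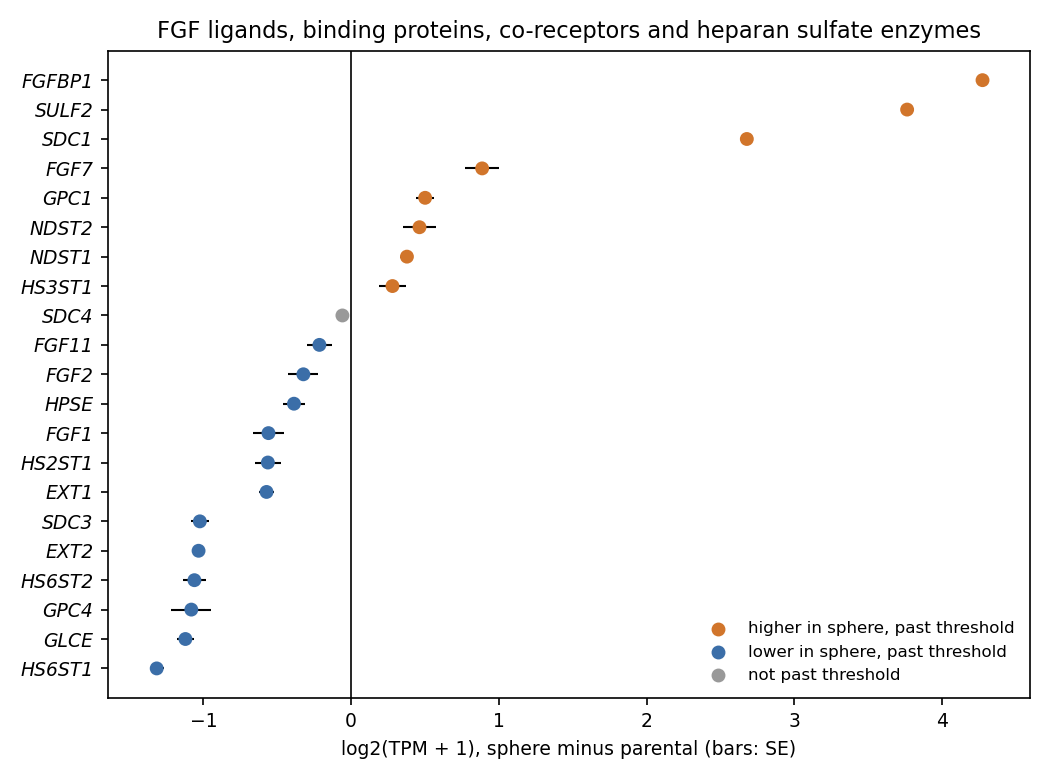
Log2(TPM + 1) difference, sphere minus parental, with its SE for each tested FGF family gene, binding protein, co-receptor and heparan sulfate enzyme, coloured by call. FGFBP1 (4.27), SULF2 (3.76) and SDC1 (2.68) stand above the others, and HS6ST1 is lowest at -1.32.

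Of 19 tested signal transducers between receptor and ERK, 7 rose and 10 fell (35.1% and 48.2% of all tested genes), with a median of -0.20 and a mean of 0.04, which differ in sign, and median-of-ratios scaling gave 8 and 5. At least 2-fold, 2 rose and 0 fell, against 12.5% and 14.7% of all tested genes. The RAS exchange factor SOS2 rose from 7.89 ± 0.31 to 23.9 ± 0.8 TPM and the docking protein GAB1 from 1.92 ± 0.14 to 5.41 ± 0.38 TPM (limma adjusted p = 8.3e-09 and 1.2e-06). The largest falls were in the ERK kinase MAP2K2 (209 ± 12.7 to 125 ± 6.7 TPM) and in the phosphatase PTPN11 (123 ± 2.7 to 82.2 ± 1.5 TPM).

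By level, the order in parental libraries was FGFBP1, FGFR2, ETV5, ETV4, SPRY2, SPRY4, SPRY1, FGFR3, FGF2 and FGFR1. In sphere libraries it was FGFBP1, SPRY2, ETV4, SPRY4, ETV5, FGFR3, FGFR2, SPRY1, FGF2 and FGFR1. Neighbours in this order whose values overlapped were SPRY1 with FGFR3 and FGFR3 with FGF2 in parental libraries, and SPRY1 with FGF2 in sphere libraries. FGFR2 thus went from the second to the seventh place.

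Over the 20 tested neighbours of each gene the median difference lay between -0.39, next to FGF2 and SPRY1, and 0.10, next to FGFR3. It was 0.03 next to FGFBP1, 0.05 next to FGFR2, -0.15 next to SPRY2 and -0.23 next to SPRY4. FGF2 and SPRY1 lie near each other on chromosome 4 and share 16 of these neighbours, and each is itself counted among the neighbours of the other. In each case 3 of the 20 rose and 11 fell, where 35.1% of all tested genes rose and 48.2% fell, with a median of -0.13. The differences of FGF2 and SPRY1 themselves, -0.32 and -0.35, are of the neighbours' size. The part of a regional shift in these values was not tested.

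Outside the lists, the genes whose log2(TPM + 1) values over the 6 libraries were closest to FGFR2 were PTX3, ESPL1 and CXCL2, at Euclidean distances of 0.22, 0.29 and 0.38. PTX3 was at 29.7 ± 1.1 and 4.23 ± 0.22 TPM. All 3 fell. The nearest to FGFBP1 were PYGB, DSP and NDRG1 at distances of 1.23, 1.38 and 1.54, all of which rose, again by that choice. PYGB was at 57.9 ± 2.0 and 679 ± 24.4 TPM.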

How the data were processed

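Total RNA was sequenced on a BGISEQ500 with single-end reads, per the labels' protocols. The authors deposited 1 table of TPM per library. HISAT, Bowtie2 (no version for either) and a build are named in the submitters' processing notes. That build is GRCm38.p6, of mouse, although the gene IDs are human Entrez Gene IDs, so the build behind the values is unclear. Not given in the sources used here: counting tool, annotation, strand. The columns named Control were taken as parental, the only other group. TPM keeps no depth, so precision rests on the spread between 3 libraries.

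Genes with a mean of at least 1 TPM (12261) were tested on log2(TPM + 1), sphere minus parental, two-sided, with limma 3.58.1 in R 4.3.3 (trend in eBayes, Benjamini-Hochberg over all tested genes, threshold 0.05). Differences on this scale understate changes of low genes. The script was tested on simulated data in which few genes were changed. That test does not bear on the scaling of these libraries. Shares of receptor TPM were compared by exact permutation in scipy 1.17.1. Promoter sequences and gene order came from RefSeq (GRCh38.p14), matched by Entrez Gene ID.

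The members, lists and tests were chosen with earlier results of these data known. Besides the 10 genes and all FGF ligands and receptors, the rule named, from each list, the 2 largest rises and 2 largest falls past the threshold with groups apart and at least 5 TPM in the higher group, and the 3 genes nearest in pattern to the largest rise and fall. The markers and overlapping genes fall outside it. Single choices were changed in turn: the filter (none, or a 5 TPM mean), the pseudocount (0.1), scaling by median of ratios, the variance model (robust, untrended, or with array weights), a block for the replicate number, and each library left out.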

Additional observations from a re-analysis of the deposited data

How the results depend on the processing

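FGFBP1, FGFR2, FGFR3, SPRY2, SPRY4, ETV4 and ETV5 kept their direction and call under all 14 alternatives. Over these, the log2 difference ranged from 4.25 to 4.45 for FGFBP1, -2.73 to -2.34 for FGFR2, 2.11 to 2.56 for FGFR3, 2.52 to 2.72 for SPRY2, 2.27 to 2.55 for SPRY4, 0.78 to 1.0 for ETV4 and -0.49 to -0.28 for ETV5. Of the 10 genes, 4 were lower as reported, but 2 with median-of-ratios scaling and 2 with a mean of at least 5 TPM, which leaves FGF2 and SPRY1 untested. Leaving out 1 library gave 3 or 4. FGFRL1 changed sign with median-of-ratios scaling (0.10, adjusted p = 0.17), which moved the median of all tested genes from -0.13 to 0.03. Leaving out 1 library gave an FGFR3 share difference of 59.0 to 60.6 percentage points, an FGFR2 difference of -34.0 to -31.8 and an FGFR4 difference of -28.0 to -26.2. The FGFR4 share and the receptor sum were added after seeing the data.

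With the replicate number as a block, 9 of the 10 genes passed, 5 higher and 4 lower, and 10192 of all genes passed (10221 as reported). The block ended the call of FGF11 (adjusted p = 0.057) and of no other gene named by the rule. Deviations from the group mean correlated at 0.018, -0.018 and -0.055 between libraries of the same number, and the labels do not say that a number pairs libraries.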
